A study of Mus musculus with 6 samples.

Results

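The ephrins, the Eph receptors and Nr2f2 were examined in tumor endothelial cells (ECs) as genes of artery and vein identity and of contact between ECs. They are 9 genes chosen by name, Efnb1, Efnb2, Efna1, Ephb2, Ephb3, Ephb4, Epha2, Epha4 and Nr2f2, among 24346 gene symbols measured in every sample. The ECs came from subcutaneous tumors of MC38, a murine colon carcinoma line, grown in C57BL/6 mice inoculated at 8 to 10 weeks of age and taken at day 19. Of 6 samples, 3 came from WT mice and 3 from Apelin-KO mice, which lack Apln in all cells throughout life and not in ECs alone. ECs were gated as CD31+CD45- cells, so Pecam1 (CD31) and Ptprc (CD45) chose the cells. The sample titles carry the word Saline in both genotypes, and the methods for the RNA-sequencing do not say whether a saline infusion was given. The values are FPKM, a read number corrected for transcript length and for the total of mapped reads, which allow levels of different genes to be compared per length.

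Ephrins are ligands tethered to the cell surface, and Eph receptors are the receptor tyrosine kinases that bind them on a neighbouring cell. A-class ephrins are held by a lipid anchor, whereas B-class ephrins cross the membrane and can themselves signal into the cell that carries them. In vessels, ephrin-B2 (Efnb2) is the classical marker of arteries and sprouting ECs, EphB4 (Ephb4) is its receptor on veins, and the nuclear receptor COUP-TFII (Nr2f2) holds venous identity by restraining Notch signalling. Apelin is a peptide made by ECs that acts on the receptor APJ (Aplnr). The comparison asks how much of each gene tumor ECs carried with and without Apln.

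Apln was 432.4, 434.8 and 504.1 FPKM in WT 1, 2 and 3 and 9.96, 17.5 and 24.3 FPKM in Apelin-KO 1, 2 and 3, so the labels of all 6 samples fitted the targeted gene. Depth, inferred from the spacing of the lowest FPKM values, was an estimated 9010000 to 10270000 reads per sample. All 10 endothelial markers had a mean of at least 1 FPKM, with Pecam1 between 553 and 846 FPKM. Their summed level was 3315 to 3891 FPKM in WT and 4054 to 4326 FPKM in Apelin-KO samples, and all 10 had lower means in WT on the log2 scale. Of 10 hematopoietic markers, 7 had a mean of at least 1 FPKM, and their summed level was 161 to 571 FPKM in WT and 66.5 to 189 FPKM in Apelin-KO samples, with all 7 higher in WT by their means. Of 10 fibroblast markers, 7 had a mean of at least 1 FPKM and all 7 were higher in WT by their means, with a summed level of 198 to 344 FPKM in WT and 132 to 205 FPKM in Apelin-KO samples. Of 10 pericyte markers, 7 had a mean of at least 1 FPKM, with 2 of the 7 higher and 5 lower in WT by their log2 fold changes. The pericyte sum was 145 to 185 FPKM in WT and 191 to 216 FPKM in Apelin-KO samples. Most of it came from Kcnj8 and Abcc9, named after their values were seen, with means of 85.5 and 69.1 FPKM. The groups of both genes overlapped. The pericyte gene Rgs5, named after its values were seen, was 3.48, 3.17 and 3.66 FPKM in WT and 6.83, 7.86 and 8.67 FPKM in Apelin-KO samples, with an adjusted p of 0.214 from limma. At an unadjusted p under 0.05, which 9.42% of all genes passed, 4 of 7 hematopoietic and 4 of 7 fibroblast markers were higher in WT, and 1 of 7 pericyte markers (Rgs5) and 3 of 10 endothelial markers were lower. Of 10 markers of epithelial tumor cells, 1 had a mean of at least 1 FPKM, and Cdx2 was listed at 0. In these bulk samples, fewer cells of a type and less RNA per cell cannot be told apart. The part that these marker differences had in any result below was not tested.

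Across the 9 genes, the ligand Efna1 had the highest level in every sample, followed by the pair Efnb2 and Ephb4. The means over 6 samples were 304 FPKM for Efna1, 78.5 FPKM for Efnb2, 76.3 FPKM for Ephb4, 19.9 FPKM for Epha2, 12.004 FPKM for Nr2f2 and 3.52 FPKM for Efnb1. Ephb3, Epha4 and Ephb2 followed at 0.415, 0.354 and 0.0718 FPKM. The ranges of neighbours in this order did not overlap, except for Efnb2 and Ephb4, for Ephb3 and Epha4, and for Epha4 and Ephb2. Within a sample, Efnb2 was above Ephb4 in 4 of 6 samples, Ephb3 above Epha4 in 4 of 6, and Epha4 above Ephb2 in all 6. Among the 10964 genes averaging 1 FPKM or more, Efna1 ranked 230 by mean level, Efnb2 1121, Ephb4 1161, Epha2 3961, Nr2f2 5385 and Efnb1 8674.

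**Figure D1:**
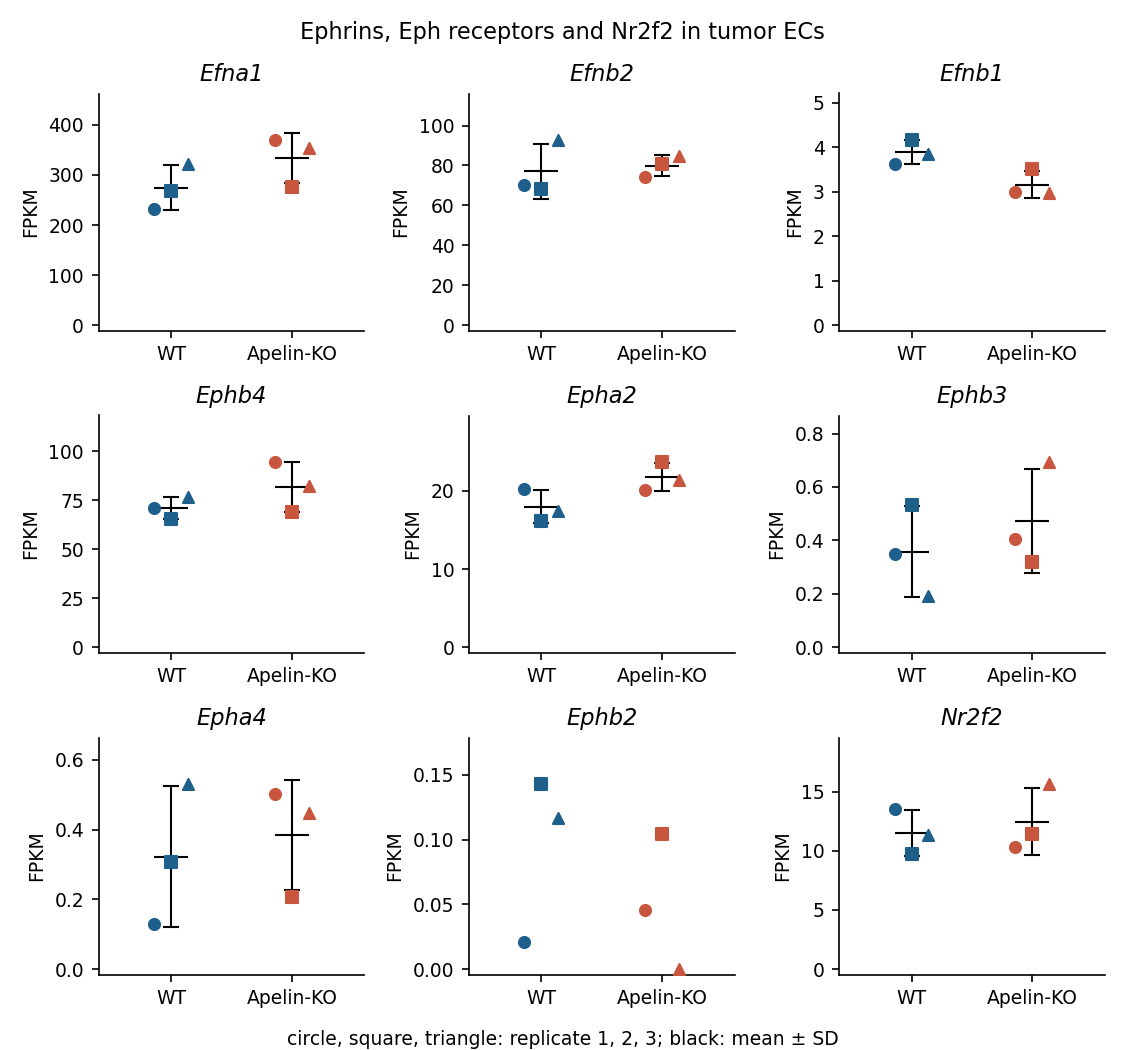
FPKM of the 9 genes (vertical axes, each with its own range) in WT and Apelin-KO tumor ECs. Each symbol is a sample, black bars give the mean ± SD (n = 3), and no mean is drawn for Ephb2, which was listed at 0 in Apelin-KO 3. The groups overlap in every panel but that of Efnb1, where the WT samples lie between 3.635 and 4.169 FPKM, above the 3 Apelin-KO samples.

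Within the gene family, a few members made up most of the summed level in tumor ECs. Of 8 ephrins and 14 Eph receptors in the files, 22 genes in all, 6 had a mean of at least 1 FPKM, namely Efna1, Efnb2, Efnb1, Ephb4, Epha2 and Ephb1. Efna1 made up 74.9% to 82.3% of the summed FPKM of the 8 ephrins, and Efnb2 16.5% to 22.5%. On the receptor side Ephb4 held 64.4% to 73.4% of the sum of the 14 receptors, Epha2 15.7% to 22.2% and Ephb1, a further receptor of B-class ephrins, 8.96% to 12.5%. Each class was thus headed by the same gene in all 6 samples, with Efna1 at 98.7% to 99.6% of the A-class ephrins, Efnb2 at 93.5% to 95.7% of the B-class ephrins, Epha2 at 93.1% to 97.9% of the A-class receptors and Ephb4 at 83.2% to 87.8% of the B-class receptors. Ephb1 was 10.7, 9.83 and 13.6 FPKM in WT and 12.4, 12.9 and 10.4 FPKM in Apelin-KO samples, and its groups overlapped. Ephb6, the next of the other receptors, was 1.103, 0.995 and 0.305 FPKM in WT and 0.299, 0.573 and 0.710 FPKM in Apelin-KO samples, also with overlap. The 5 remaining ephrins had means under 1 FPKM, the highest being Efnb3 at 0.893 FPKM. Efna5, next in level, was 1.16, 1.27 and 0.851 FPKM in WT and 0.363, 0.565 and 0.761 FPKM in Apelin-KO samples, and every WT value was above every Apelin-KO value. The same separation was seen for Epha7, named here after its values were seen, at 0.478, 0.642 and 0.460 FPKM in WT and 0.346, 0.163 and 0.225 FPKM in Apelin-KO samples. Of the 14 ephrin and Eph genes outside the 9, Efna5 and Epha7 alone separated. Both were under the level filter and were not tested, and the share of genes this low that separate was not computed. Among the 10964 genes above the filter the groups did not overlap for 14.4%, with WT higher for 6.61%. Epha5 was listed at 0 in all 6 samples.

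**Figure D2:**
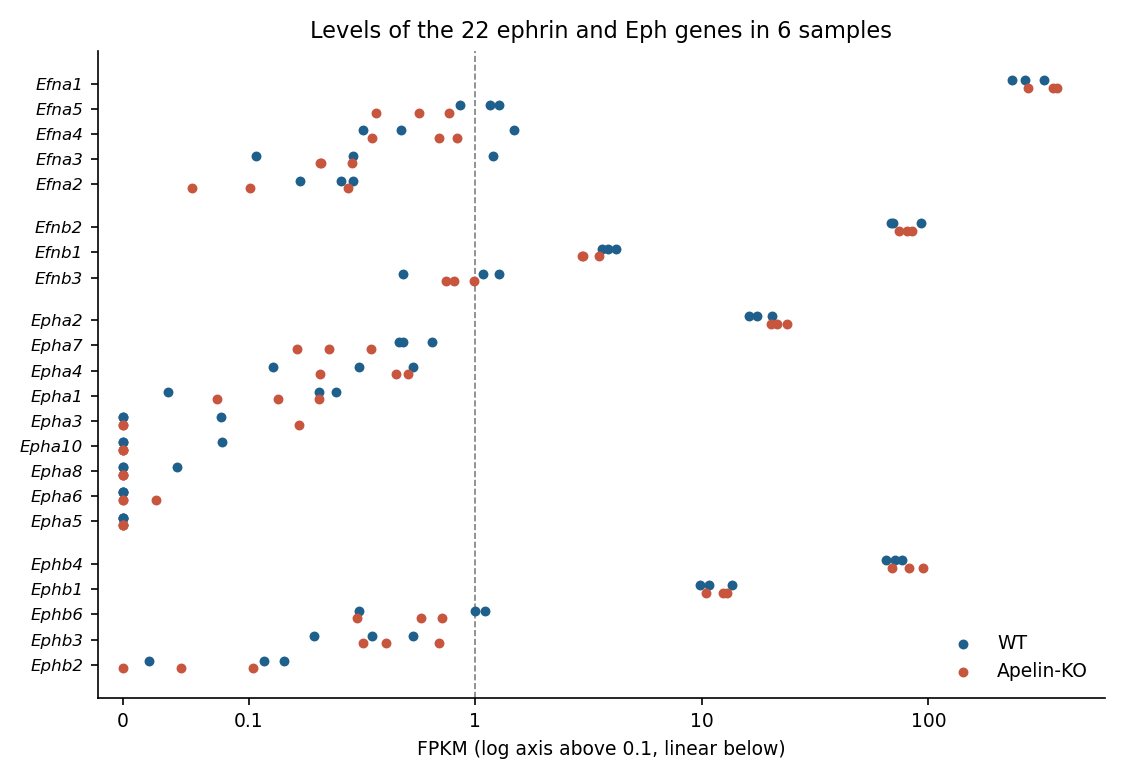
FPKM of the 22 ephrin and Eph receptor genes (horizontal axis, logarithmic above 0.1 and linear below) in each WT and Apelin-KO sample, ordered by class and mean level. The dashed line marks 1 FPKM, and 6 genes have a mean at or above it, with Efna1 highest at 304 FPKM.

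The 10964 genes were then fitted with limma on log2(FPKM + 1). Differences are given as WT minus Apelin-KO, with Benjamini-Hochberg adjustment over all of these genes. Of the 9 genes, 6 passed the level filter and were tested, and none of the 6 had an adjusted p under 0.05, where 0.00912% of all genes tested did, the only such gene being Apln. At an unadjusted p under 0.05 the count was also 0 of 6, against 9.42% of all genes. With each gene's own variance in place of limma's moderated one, Efnb1 alone passed that unadjusted threshold and again failed the adjusted one. The groups did not overlap for 1 of the 6, Efnb1, which was higher in WT, against 14.4% of all genes in either direction and 6.61% with WT higher. The log2 fold change was below 0 for 5 of the 6, with a median of -0.15 beside -0.01 for all genes tested. That direction depended on the scaling and on single samples. Without WT 2, 3 of the 6 were below 0 and the median was -0.07, and without Apelin-KO 3, 4 of the 6 were below 0. With each sample scaled to its endothelial markers 2 of the 6 were below 0 and the median was 0.09, while the median of all genes moved to 0.21. With 3 against 3 samples an exact permutation test cannot give a p below 0.1.

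**Figure D3:**
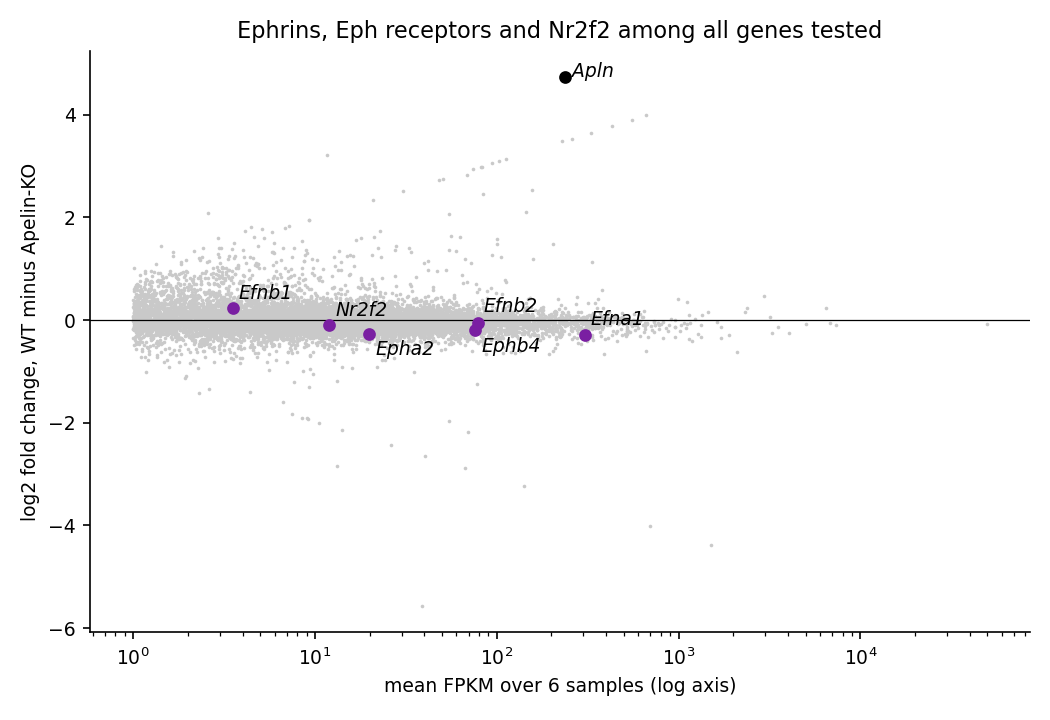
Log2 fold change (WT minus Apelin-KO, vertical axis) against mean FPKM over 6 samples (horizontal axis, logarithmic) for the 10964 genes tested, in grey. The 6 tested ephrin, Eph receptor and Nr2f2 genes, in purple, lie between -0.28 and 0.23, and Apln, in black, lies at 4.73.

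Among the ligands, Efna1 encodes ephrin-A1, an A-class ephrin of ECs that is known to be induced by inflammatory cytokines. The gene lies at chr3:89271733-89281142 on the minus strand of GRCm38 and has 5 exons in its longest coding transcript. Efna1 was 233, 267 and 322 FPKM in WT and 370, 276 and 355 FPKM in Apelin-KO samples. WT 1 was lowest and Apelin-KO 1 highest, and WT 3 was above Apelin-KO 2, so that the groups overlapped. The mean of 334 ± 50.4 FPKM (SD, n = 3) in Apelin-KO was 122% of the 274 ± 45.0 FPKM (SD, n = 3) in WT. The difference was -0.28 on the log2 scale (standard error 0.17, 95% confidence interval -0.68 to 0.11, adjusted p = 0.623 from limma), beside a within-group SD of 0.23, and its interval included 0. Scaled to the endothelial markers, the difference was -0.04, and without WT 1 it was -0.17.

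Efnb2 encodes ephrin-B2, the ligand of arterial ECs and of sprouts. It lies at chr8:8617434-8661242 on the minus strand, with 5 exons. Efnb2 was 70.1, 68.2 and 92.8 FPKM in WT and 74.4, 80.7 and 84.7 FPKM in Apelin-KO samples. WT 3 was the highest of all and WT 1 and WT 2 were the lowest, so the Apelin-KO values fell inside the WT range. The means were 77.1 ± 13.7 FPKM (SD, n = 3) in WT and 79.9 ± 5.18 FPKM (SD, n = 3) in Apelin-KO, a log2 difference of -0.06 (standard error 0.14, adjusted p = 0.908). Its 95% confidence interval ran from -0.40 to 0.27, so that on the scale of FPKM + 1 an Apelin-KO level from 0.827 to 1.32 times that of WT was within it. The direction turned in some alternatives, with a log2 difference of 0.18 once samples were scaled to their endothelial markers and 0.016 without WT 2.

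Efnb1 encodes ephrin-B1, the other B-class ligand above the filter, and lies on the X chromosome, as Apln does, at chrX:99136130-99148991 on the plus strand, with 5 exons. Efnb1 was 3.635, 4.169 and 3.854 FPKM in WT and 2.998, 3.503 and 2.97 FPKM in Apelin-KO samples. Every WT sample was above every Apelin-KO sample, with the narrowest gap between WT 1 and Apelin-KO 2. The mean was 3.89 ± 0.268 FPKM (SD, n = 3) in WT and 3.16 ± 0.300 FPKM (SD, n = 3) in Apelin-KO, which was 81.2% of WT. The log2 fold change of 0.23 (standard error 0.10, 95% confidence interval -0.01 to 0.48) had an unadjusted p of 0.0577 and an adjusted p of 0.532 from limma. Scaled to the endothelial markers, it was 0.42 (limma, unadjusted p = 0.0215, adjusted p = 0.275), while the median of all genes moved to 0.21. The Efnb1 values rest on an estimated 85.8 to 114.9 reads per sample, far fewer than the 2825 to 3911 estimated reads of Efnb2. The hematopoietic and fibroblast marker sums were highest in WT 1 and WT 2. Those of WT 3, at 161 and 198 FPKM, lay inside the Apelin-KO ranges. In each of these lists 1 of 7 tested markers was higher in every WT sample, as Efnb1 was, where 6.61% of all genes were. The part of such cells in the Efnb1 values was not tested.

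Among the receptors, Ephb4 encodes EphB4, the venous receptor of ephrin-B2, and lies at chr5:137350109-137378669 on the plus strand with 17 exons. Ephb4 was 70.8, 65.1 and 76.4 FPKM in WT and 94.5, 69.0 and 82.2 FPKM in Apelin-KO samples. Apelin-KO 1 and Apelin-KO 3 were above all WT samples, and Apelin-KO 2 was below WT 1 and WT 3. The means were 70.8 ± 5.61 FPKM (SD, n = 3) in WT and 81.9 ± 12.8 FPKM (SD, n = 3) in Apelin-KO, or 116% of WT. The log2 difference was -0.20 (standard error 0.14, 95% confidence interval -0.53 to 0.13, adjusted p = 0.684), and it was 0.04 once samples were scaled to their endothelial markers. It was -0.09 without Apelin-KO 1 and -0.32 without Apelin-KO 2.

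Epha2 encodes EphA2, the main receptor of ephrin-A1 on ECs, and lies at chr4:141301240-141329384 on the plus strand with 17 exons. Epha2 was 20.3, 16.1 and 17.5 FPKM in WT and 20.2, 23.7 and 21.4 FPKM in Apelin-KO samples. The groups met only through WT 1, which was just above Apelin-KO 1, and the other WT samples were below all Apelin-KO samples. The means were 17.98 ± 2.14 FPKM (SD, n = 3) in WT and 21.8 ± 1.81 FPKM (SD, n = 3) in Apelin-KO, or 121% of WT. The log2 difference of -0.27 (standard error 0.12, 95% confidence interval -0.55 to 0.02) had an unadjusted p of 0.0649 and an adjusted p of 0.542 from limma. Scaled to the endothelial markers, the difference was -0.03. The Efna1 level was 11.5 to 18.4 times that of Epha2 in the same sample, with a mean ratio of 15.5 ± 3.601 (SD, n = 3) in WT and 15.5 ± 3.48 (SD, n = 3) in Apelin-KO.

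The remaining receptors were close to the limit of detection. Ephb3, a B-class receptor, lies at chr16:21204755-21223305 on the plus strand and was 0.348, 0.533 and 0.193 FPKM in WT and 0.404, 0.320 and 0.694 FPKM in Apelin-KO samples. Epha4, which can bind ephrins of both classes, lies at chr1:77367185-77515088 on the minus strand and was 0.128, 0.307 and 0.531 FPKM in WT and 0.503, 0.206 and 0.447 FPKM in Apelin-KO samples. The groups of both genes overlapped, and their highest and lowest values fell in different samples. Ephb2, a B-class receptor at chr4:136647539-136835988 on the minus strand, was 0.021, 0.143 and 0.117 FPKM in WT and 0.046, 0.104 and 0 FPKM in Apelin-KO samples. By the estimated depth these levels stand for 8.1 to 29.8 reads of Ephb3, 8.0 to 29.8 reads of Epha4 and at most 13.8 reads of Ephb2 per sample, and they were under the level filter. With no filter all 9 genes entered the fit, and 0 of the 9 had an adjusted p under 0.05 in limma. The transcripts were compared for exact matches. None of the 75-base windows of the longest coding transcripts, as long as the sequenced reads, occurred whole in a transcript of another gene for any of the 9 genes. Whether reads of a relative, aligned with mismatches, entered the low values was not tested. The longest run shared by any of the 36 pairs was 29 bases, found for Ephb2 with Ephb3 and for Ephb2 with Epha2. The Ephb2 and Ephb3 run is shown inside a 75-base window of coding sequence from the GENCODE transcripts, with the shared run in capitals, at positions 2353 to 2427 of the Ephb2 transcript and 3531 to 3605 of the Ephb3 transcript. The windows differ at 7 of 75 bases.
Ephb2: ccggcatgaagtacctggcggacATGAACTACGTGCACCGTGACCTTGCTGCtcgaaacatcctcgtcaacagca
Ephb3: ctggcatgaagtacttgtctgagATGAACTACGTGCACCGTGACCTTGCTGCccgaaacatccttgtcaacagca

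The ratio of Efnb2 to Ephb4 within a sample sets the arterial ligand against its venous receptor. It was 0.990, 1.05 and 1.22 in WT and 0.787, 1.17 and 1.03 in Apelin-KO samples. WT 3 was highest and Apelin-KO 1, which had the highest Ephb4 level, was lowest, with the other samples mixed. On the log2 scale the ratio was 0.11 ± 0.15 (SD, n = 3) in WT and -0.03 ± 0.29 (SD, n = 3) in Apelin-KO. The difference of 0.14 was smaller than the SD within either group, and it became -0.02 without Apelin-KO 1.

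**Figure D4:**
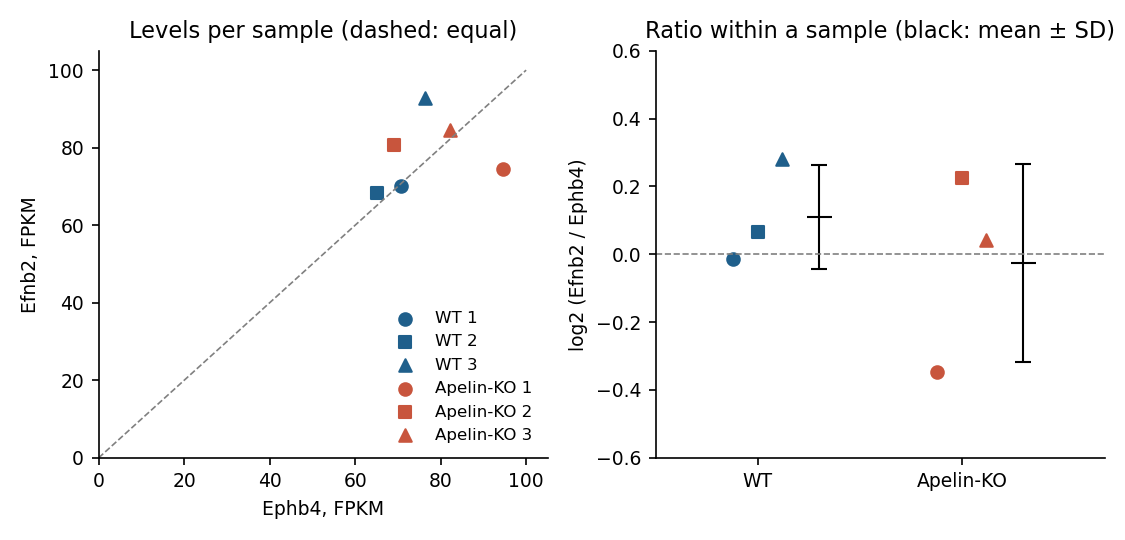
Left, Efnb2 against Ephb4 (FPKM) with 1 symbol per sample and a dashed line where the levels are equal. Right, log2 of the ratio of Efnb2 to Ephb4 in each sample, with mean ± SD in black (n = 3). The samples scatter on both sides of equality, from -0.35 in Apelin-KO 1 to 0.28 in WT 3.

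The sequences before the start sites of this ligand and receptor are shown with the motif GGGCGG, the core of a GC box. The 250 bases upstream of the start of Efnb2 (chr8:8661243-8661492, minus strand) and of Ephb4 (chr5:137349859-137350108, plus strand) were taken from RefSeq on GRCm38.p6, written from 5′ to 3′ along the gene, with each match on either strand in capitals.
Efnb2: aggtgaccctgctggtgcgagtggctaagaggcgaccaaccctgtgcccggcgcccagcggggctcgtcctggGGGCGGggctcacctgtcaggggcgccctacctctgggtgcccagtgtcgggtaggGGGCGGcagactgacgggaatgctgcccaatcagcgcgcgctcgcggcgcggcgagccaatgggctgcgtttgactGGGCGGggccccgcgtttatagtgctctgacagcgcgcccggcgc
Ephb4: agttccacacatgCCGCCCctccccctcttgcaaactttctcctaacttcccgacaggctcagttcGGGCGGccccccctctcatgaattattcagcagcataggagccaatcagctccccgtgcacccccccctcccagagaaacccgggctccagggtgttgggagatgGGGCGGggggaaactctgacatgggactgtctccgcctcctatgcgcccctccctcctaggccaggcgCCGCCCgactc
Efnb2 held 3 matches and Ephb4 held 4, with a GC content of 72.0% and 64.0%, and 32.7% of all 32851 promoters of this length held at least 1. The other genes held 2 matches for Ephb3, 1 each for Epha2 and Epha4, 1 and 2 in the windows of the 2 start sites of Efna1, and 0 for Efnb1, Ephb2 and Nr2f2. No binding was measured in these samples, and the matches are a description of the letters alone.

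Nr2f2, the venous regulator, lies at chr7:70351944-70366735 on the minus strand with 3 exons. Nr2f2 was 13.6, 9.72 and 11.3 FPKM in WT and 10.3, 11.4 and 15.7 FPKM in Apelin-KO samples. Apelin-KO 3 was highest and WT 2 lowest, and the groups overlapped over most of their range. The means were 11.5 ± 1.93 FPKM (SD, n = 3) in WT and 12.5 ± 2.82 FPKM (SD, n = 3) in Apelin-KO. The log2 difference was -0.10 (standard error 0.18, 95% confidence interval -0.52 to 0.33, adjusted p = 0.894 from limma). Its direction turned with the endothelial scaling (0.13), without WT 2 (0.012) and without Apelin-KO 3 (0.068). Of the 6 genes tested Nr2f2 varied most within groups, with a within-group SD of 0.26 on the log2 scale beside 0.09 for Efnb1, and the median of all genes tested was 0.16. Nr2f2 is also carried by lymphatic ECs, and the 6 lymphatic EC markers, all with a mean of at least 1 FPKM, summed to 304, 110 and 124 FPKM in WT and 78.7, 175 and 163 FPKM in Apelin-KO samples. Among these markers, Ccl21a reached that mean through Apelin-KO 2 alone, at 39.1 FPKM, and was 0.058 to 0.484 FPKM in the other samples. The 12 dissociation stress genes summed to 2190, 1597 and 1857 FPKM in WT and 1732, 2302 and 2998 FPKM in Apelin-KO samples, highest in Apelin-KO 3 and lowest in WT 2, as Nr2f2 was. Their part in the Nr2f2 values was not tested. Its relative Nr2f1 was between 0.047 and 0.465 FPKM, under the level filter.

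The other genes of artery and vein identity were read as lists. Of 16 arterial EC genes 15 were tested, and 0 had an adjusted p under 0.05 in limma. At an unadjusted p under 0.05, 0 were higher and 1 was lower in WT, where 5.17% and 4.25% of all genes were, and the median log2 fold change was -0.12. Without overlap between groups, 1 of the 15 was higher (Vegfc) and 3 were lower in WT (Sox17, Notch4 and Acvrl1), where 6.61% and 7.77% of all genes were, and Vegfc, Notch4 and Acvrl1 were named after their values were seen. The gene with an unadjusted p under 0.05 was Sox17, a transcription factor of arterial ECs, at 18.1, 16.9 and 20.3 FPKM in WT and 28.2, 20.8 and 28.5 FPKM in Apelin-KO samples, with all WT values below all Apelin-KO values. Its log2 fold change was -0.46 (standard error 0.15, unadjusted p = 0.0180, adjusted p = 0.501). The Notch ligand Dll4, with 173 ± 19.5 FPKM in WT and 189 ± 28.9 FPKM in Apelin-KO (SD, n = 3), and the co-receptor Nrp1, with 150 ± 20.5 and 148 ± 20.8 FPKM, were among the most abundant of the list, and their groups overlapped.

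Of 10 venous EC genes 9 were tested, and 0 had an adjusted p under 0.05. At an unadjusted p under 0.05, 1 was higher and 1 was lower in WT, where 5.17% and 4.25% of all genes were, and the median log2 fold change was -0.07. The higher gene was Vcam1, an adhesion molecule for leukocytes that other cells of a tumor can also carry, at 54.9, 85.9 and 45.6 FPKM in WT and 21.2, 36.5 and 36.2 FPKM in Apelin-KO samples. WT 2 was highest, and the groups did not overlap (log2 fold change 0.96, standard error 0.29, unadjusted p = 0.0129, adjusted p = 0.501 from limma). The hematopoietic marker sum was also highest in WT 2, while that of WT 3, at 161 FPKM, lay inside the Apelin-KO range. The part of such cells in the Vcam1 values was not tested. By qRT-PCR of tumor ECs, the study found no difference in VCAM-1 with or without Apelin. The lower gene was Vwf, the clotting factor carrier of venous and capillary ECs, at 213, 216 and 279 FPKM in WT and 290, 289 and 308 FPKM in Apelin-KO samples, again without overlap (log2 fold change -0.34, standard error 0.13, unadjusted p = 0.0368, adjusted p = 0.515). These were the 1 higher and 1 lower of the 9 without overlap, where 6.61% and 7.77% of all genes were. Emcn and Lrg1, the most abundant of the list, were 483 ± 57.2 and 436 ± 55.8 FPKM in WT and 506 ± 30.05 and 545 ± 154 FPKM in Apelin-KO (SD, n = 3), and both overlapped. Aplnr, the receptor of Apelin, named after its values were seen, was 334, 366 and 387 FPKM in WT and 568, 336 and 325 FPKM in Apelin-KO samples, with Apelin-KO 1 far above the rest. Scaled to the endothelial markers, the medians of the arterial and venous lists were 0.12 and 0.17. With that scaling Sox17 was at -0.22 and Vwf at -0.09, and neither passed the unadjusted threshold (limma, adjusted p = 0.383 and 0.657). Vcam1 was at 1.20 and passed it, as 2 arterial and 2 venous genes did with WT higher and 0 with WT lower, beside 1879 and 57 of all 10964 genes.

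**Figure D5:**
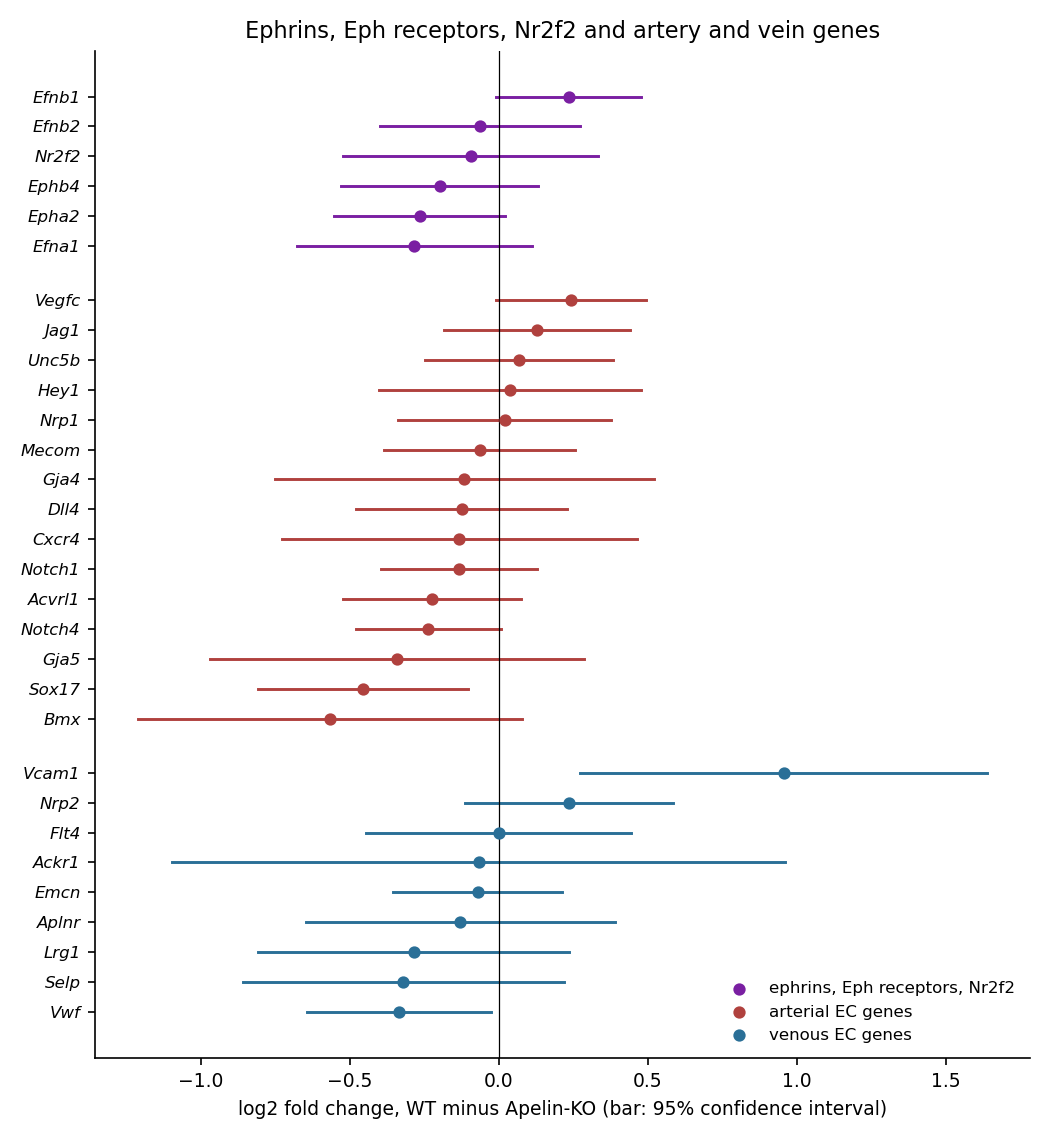
Log2 fold change (WT minus Apelin-KO, horizontal axis) with its 95% confidence interval for each tested ephrin, Eph receptor and Nr2f2 gene (purple), arterial EC gene (red) and venous EC gene (blue). All 6 purple intervals include 0, and Vcam1, at 0.96, lies farthest from 0.

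Downstream of the receptors and ligands, 18 of 22 signal transducers were tested. None had an adjusted p under 0.05, the lowest being 0.506 from limma. At an unadjusted p under 0.05, 0 were higher and 4 were lower in WT, where 4.25% of all genes were lower, and the median log2 fold change was -0.10. The 4 genes were Arhgef15, Ptprb, Vav3 and Fyn, of which Vav3 and Fyn were named after their values were seen, and they were also the 4 of 18 transducers that were lower in WT without overlap, where 7.77% of all genes were. The count of transducers lower at an unadjusted p under 0.05 depended on single samples. It was 0 without WT 2 or Apelin-KO 3, 1 without Apelin-KO 1 and 4 without WT 3. Arhgef15, a guanine nucleotide exchange factor of vascular ECs, was 52.4, 47.1 and 57.8 FPKM in WT and 69.4, 60.8 and 71.2 FPKM in Apelin-KO samples. All WT values were below all Apelin-KO values, and the log2 fold change was -0.35 (standard error 0.12, unadjusted p = 0.0212, adjusted p = 0.506). Ptprb, the endothelial phosphatase VE-PTP, was 44.4, 42.8 and 50.5 FPKM in WT and 56.8, 53.3 and 58.3 FPKM in Apelin-KO samples, again without overlap (log2 fold change -0.29, standard error 0.11, unadjusted p = 0.0296, adjusted p = 0.513). Vav3, an exchange factor for Rac, was 5.96 ± 0.415 FPKM in WT and 7.37 ± 0.440 FPKM in Apelin-KO, and Fyn, a Src family kinase, was 108 ± 12.8 and 134 ± 8.34 FPKM (SD, n = 3). The 10 endothelial markers also had lower means in WT, their median log2 fold change being -0.23, and 3 of 10 were at an unadjusted p under 0.05. With samples scaled to those markers, 0 transducers were lower and 2 higher in WT at that threshold, where 57 and 1879 of all 10964 genes were, the median was 0.14 beside 0.21 for all genes, and the differences of Arhgef15 and Ptprb were -0.11 and -0.05. Sdcbp, the PDZ protein syntenin that binds B-class ephrins, and Adam10, a protease that sheds ephrins, were the most abundant of the list. Sdcbp was 731 ± 44.5 FPKM in WT and 741 ± 22.5 FPKM in Apelin-KO, and Adam10 was 183 ± 19.4 and 199 ± 18.4 FPKM (SD, n = 3), with overlapping groups.

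The genes whose pattern over the 6 samples was most like that of Efnb2, Ephb4 and Nr2f2 were found by the mean absolute difference of deviations from each gene's own mean on log2(FPKM + 1). For Efnb2 they were Tram2 (0.0284), Nr5a2 (0.0318) and Vash1 (0.0343), where the median over all genes was 0.183. Vash1, which encodes the vessel regulator vasohibin-1, was 24.1, 23.8 and 29.7 FPKM in WT and 25.3, 27.4 and 29.8 FPKM in Apelin-KO samples. For Ephb4 the nearest were Sfmbt1 (0.0208), St5 (0.0334) and Ddah2 (0.0370), with a median of 0.191. Ddah2, linked to nitric oxide metabolism, was 94.1, 81.9 and 98.0 FPKM in WT and 121.6, 91.8 and 99.3 FPKM in Apelin-KO samples, with Apelin-KO 1 highest and WT 2 lowest as for Ephb4. For Nr2f2 the nearest were Pnrc1 (0.0198), Zfp91 (0.0353) and Gpsm1 (0.0370), with a median of 0.223. Pnrc1, a coactivator of nuclear receptors, was 104.4, 79.5 and 89.0 FPKM in WT and 79.2, 90.5 and 121.0 FPKM in Apelin-KO samples. The 9 genes named here were the nearest of 10964, and these likenesses over 6 samples are descriptions without a test.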

How the data were processed

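ECs sorted from MC38 tumors of WT and Apelin-KO mice were measured, with 3 samples each, by RNA-sequencing. The authors prepared stranded mRNA libraries, read them single-end with 75 bases, aligned them to mm10 and deposited FPKM per gene symbol. The submitters' processing notes list bcl2fastq 2.17.1.14, TopHat2 2.1.1, Bowtie2 2.2.4, SAMtools 1.0 and Cufflinks 2.2.1. No read counts were used. FPKM divide by an assumed transcript length, so levels depend on the annotation, which is not given in the sources used here.

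The 10964 of 24346 genes averaging 1 FPKM or more were tested on log2(FPKM + 1) with limma 3.58.1 in R 4.3.3, by a two-sided moderated test without trend or block and with Benjamini-Hochberg adjustment over all genes tested. The pseudocount understates fold changes of low genes. The fit was tested on simulated data. Depth was estimated from low FPKM of 3742 genes, with 200-base fragments assumed: 57.8% to 60.5% of low values were within 0.1 of a whole read, where 20% would be by chance, so single reads were not recovered and no count test was run. Estimated reads of a gene use its longest coding transcript.

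The study gives n = 3 per genotype, without saying whether a sample is a mouse or a pool, so p-values measure the spread between these samples. The 9 genes and all gene lists were chosen with earlier results of these data known. Named were the 9 genes, Apln, and from each list of other ephrins, other Eph receptors, transducers, arterial and venous genes the 2 highest by mean and up to 2 in each direction with the lowest unadjusted p under 0.05. Alternatives changed the pseudocount, filter, scaling, variance, weights, block and samples included. Positions and transcripts are from GENCODE for GRCm38. All 9 genes matched the RefSeq promoter table (GRCm38.p6). Summaries and plots were made in Python 3.11.15 (pandas 2.3.3, numpy 2.4.6, matplotlib 3.10.9).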

Additional observations from a re-analysis of the deposited data

How the results depend on the processing

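None of the 6 tested genes had an adjusted p under 0.05 in limma under any of 16 alternatives, of which the scaling to endothelial markers was chosen after seeing the data. Of 95 fold changes, 89 kept their direction and 6 reversed. The adjusted p over these alternatives was lowest for Efnb1, at 0.275 (log2 fold change 0.42, unadjusted p = 0.0215) with the endothelial scaling, and Efnb1 could not be tested at a mean of at least 5 FPKM. With that scaling, which moved the median of all genes from -0.01 to 0.21 and gave 1879 genes higher and 57 lower at an unadjusted p under 0.05, in place of 567 and 466, Efnb2 was at 0.18, Ephb4 at 0.042 and Nr2f2 at 0.13, all reversed, which follows from its construction, since the markers were lower in WT. With single samples left out, Efnb2 ran from -0.20 to 0.016 (0.016 without WT 2) and Nr2f2 from -0.21 to 0.068 (0.012 without WT 2, 0.068 without Apelin-KO 3), and the cause was not tested. The unadjusted p was under 0.05 for Efnb1 in 5 alternatives, for Efna1 in 1 (without Apelin-KO 2) and for Epha2 in 1 (without WT 1). The ratio of Efnb2 to Ephb4 differed by -0.02 to 0.26. With single samples left out, the list medians ran from -0.23 to -0.07 for the 6 genes (-0.07 without WT 2). They ran from -0.21 to -0.04 for arterial genes (without WT 3 and WT 1). For venous genes the range was -0.24 to -0.03 (without Apelin-KO 3 and Apelin-KO 1), and for transducers -0.17 to -0.03 (without WT 3 and WT 1). The endothelial scaling gave medians of 0.09, 0.12, 0.17 and 0.14 for these lists in that order.

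The count of genes with an adjusted p under 0.05 was 1, and 2 with no level filter, with a mean of at least 5 FPKM and with an intensity trend. Without variance moderation it was 0, and it was 0 to 3 with single samples left out (0 without WT 2 or Apelin-KO 2, 3 without WT 1). Apln had an adjusted p of 0.497, 0.0770 and 0.108 with its own variance, without WT 2 and without Apelin-KO 2, at log2 fold changes of 4.73, 4.76 and 4.78. Without WT 1, WT 2 or Apelin-KO 3, 0 of the 4 transducers named above were lower at an unadjusted p under 0.05, and 1 (Fyn) was without Apelin-KO 1. Sox17 was above that threshold without WT 2, Apelin-KO 1 or Apelin-KO 3, and Vwf was when any sample other than WT 3 was left out.

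Deviations of same-numbered samples correlated at -0.14, 0.21 and -0.02, and those of differently numbered samples at -0.20 to 0.21. With 3 samples per group these values cannot show whether same-numbered samples were paired, and the labels do not say. With the number as a block the count was also 1, and Efnb1 had an adjusted p of 0.641. The depth limits Ephb2, Ephb3 and Epha4, with at most 29.8 estimated reads per sample.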
